A study of Homo sapiens with 3 samples.

Results

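The S100 genes encode small calcium-binding proteins, and 10 of them were examined here in untreated BTSH cells, a single clone that was picked from the HER2+ breast cancer cell line BT474 for its high sensitivity to trastuzumab, the antibody against HER2. The 10 genes are S100A2, S100A4, S100A6, S100A7, S100A8, S100A9, S100A11, S100A14, S100A16 and S100P, out of 14884 genes with a named feature and of 20 S100 genes with one. They were chosen by name, as those genes of a fixed list to which the annotation of the array gives a feature of their own, and all 10 had exactly 1 feature. The samples are 3 biological replicates, each on its own HuGene 2.0 ST array, and what sets the replicates apart, such as a passage or a day, is not given. The cells were grown without any drug, no control cell line is part of the values used here, and the arrays of BT474 and of trastuzumab-resistant BTRH cells were not analysed here. No difference between cell lines was therefore tested, and every value below is a level in BTSH cells and its spread between the 3 arrays.

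S100 proteins belong to the EF-hand family, in which a helix-loop-helix fold holds a calcium ion. Most form dimers, and the binding of calcium opens a surface through which they attach to partner proteins, such as annexins at membranes and proteins of the cytoskeleton. Several are also secreted and act on receptors such as RAGE and TLR4. In the breast, S100A2 is known as a gene of basal and myoepithelial cells, S100A8 and S100A9 as the pair that forms calprotectin in neutrophils, monocytes and stressed epithelia, and S100A7, or psoriasin, as a gene of keratinocytes and of some high-grade breast lesions.

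The authors' levels are on a log2 scale and come from RMA, a procedure that corrects background, equalizes the arrays and summarizes the probes of a feature. The medians of all 53617 features were 4.40, 4.42 and 4.43 in replicates 1, 2 and 3. To set a background, 106 features were taken whose genes breast epithelium is not known to use, from the families of hair keratin-associated proteins (KRTAP), vomeronasal receptors and late cornified envelope proteins (LCE). Their 95th percentile, the background below, lay at 6.70, 7.08 and 6.83 (log2 signal) in replicates 1, 2 and 3. A gene counted as above background where each of the 3 arrays exceeded it. The brightness of a feature depends on its probes too, so each gene was set against the background of its array and not against another gene. A call of not above background does not show that a transcript was absent.

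Of the 10 S100 genes, 4 were above background in all 3 arrays, namely S100A14, S100A16, S100A11 and S100A6, and the other 6 were above it in 0 arrays. The share that passed in all 3 arrays was 30.4% of the 14884 named genes, 63.3% passed in 0 arrays, and among the named protein-coding genes 36.5% were above it in all 3. The 4 of 10 is close to the share of protein-coding genes, and so the number of members that passed is not a result about the family. What the values do show is which members passed and by how much. In each of the 10 genes all 3 arrays fell on the same side of the background.

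**Figure D1:**
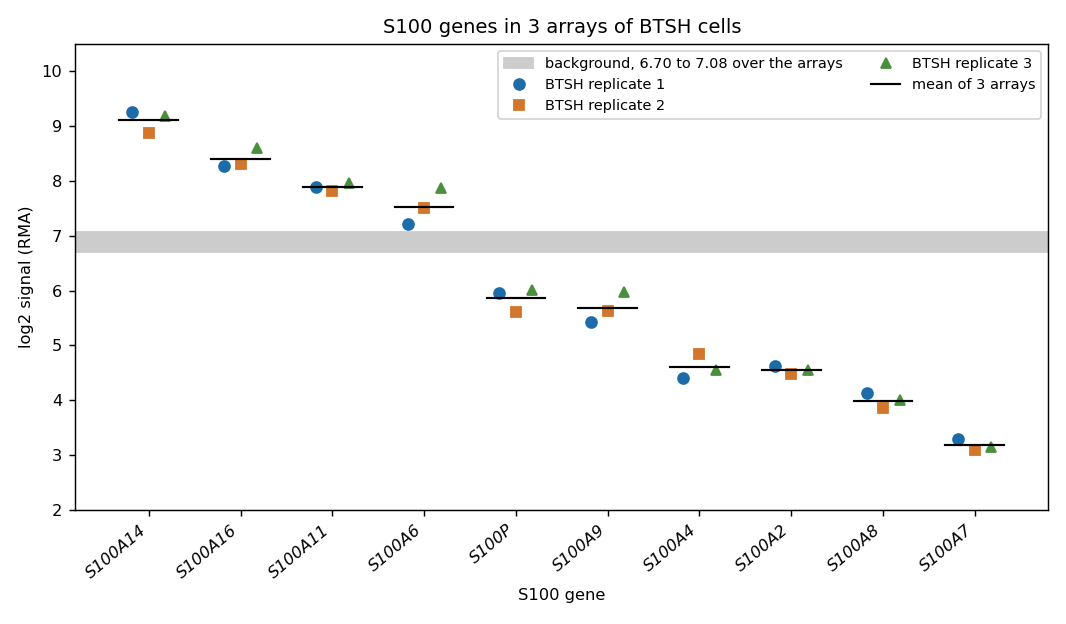
Log2 signals of the 10 S100 genes in BTSH cells, with 1 point for each of the 3 replicates, a black line at their mean and a grey band over the background of the arrays (6.70 to 7.08). The genes are sorted by mean signal, an order that also reflects their probes. S100A14, S100A16, S100A11 and S100A6 lie above the band in every replicate, and the other 6 genes lie below it in every replicate.

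S100A14, an S100 protein of epithelial cells that is found at the plasma membrane, had signals of 9.26, 8.87 and 9.18 in replicates 1, 2 and 3 (log2 signal). These lie 2.55, 1.80 and 2.35 above the background of their arrays, a mean distance of 2.23 ± 0.39 on the log2 scale (SD, n = 3 arrays). S100A2, the basal marker, had signals of 4.62, 4.48 and 4.55 in replicates 1, 2 and 3. Its distance from the background was -2.08, -2.60 and -2.28 on the log2 scale, with a mean of -2.32 ± 0.26 (SD, n = 3). In every array S100A14 was thus above background and S100A2 below it.

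The lowest S100A14 signal, in replicate 2, was still 1.80 above background, and the highest S100A2 signal, in replicate 1, was at -2.08 from it. Of 12 listed basal markers only 4 have a named feature. Of these 4 markers 0 were above background in any array, as was the case for 63.3% of all named genes. The mean signal was 3.71 ± 0.07 for the keratin gene KRT5, 4.61 ± 0.23 for KRT14 and 3.54 ± 0.14 for MYLK (SD, n = 3). MME, named after its values were seen, had 6.05 ± 0.18. It was above the 90th percentile of the background features in all 3 arrays, while S100A2, KRT5, KRT14 and MYLK were above that in 0. Of 12 named luminal markers 9 were above background in all 3 arrays and 2 in some. In all 3 arrays 36.5% of the named protein-coding genes were above it. KRT18 had a mean signal of 10.66 ± 0.21, KRT19 of 11.25 ± 0.09 and KRT8 of 6.28 ± 0.24, and KRT8 was the luminal marker above background in 0 arrays.

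The promoter windows of S100A14, S100A2 and S100A6 are shown because they carry the main contrast of the levels, that is S100A14 above and S100A2 below background, and because S100A6 stands for the members with a window rich in CpG. They are RefSeq windows on GRCh38.p14 that run from 250 bases before the start of the gene to 50 bases from it, read 5′ to 3′ on the strand of the gene. Capitals mark TATAA (the core of a TATA box), CCAAT (the CCAAT box), GGGCGG (the GC box) or TGACTCA (the AP-1 motif), each on either strand. All 10 genes have such a window, and RefSeq gives S100A2 a pair of starts, of which the one farther upstream is shown.
S100A14, chr1:153616276-153616575, minus strand: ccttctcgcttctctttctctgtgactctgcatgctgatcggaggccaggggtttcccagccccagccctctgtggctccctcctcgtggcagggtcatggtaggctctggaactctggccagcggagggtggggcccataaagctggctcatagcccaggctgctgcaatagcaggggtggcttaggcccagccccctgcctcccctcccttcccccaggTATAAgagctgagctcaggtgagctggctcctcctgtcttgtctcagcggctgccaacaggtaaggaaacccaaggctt
S100A2, chr1:153565795-153566094, minus strand: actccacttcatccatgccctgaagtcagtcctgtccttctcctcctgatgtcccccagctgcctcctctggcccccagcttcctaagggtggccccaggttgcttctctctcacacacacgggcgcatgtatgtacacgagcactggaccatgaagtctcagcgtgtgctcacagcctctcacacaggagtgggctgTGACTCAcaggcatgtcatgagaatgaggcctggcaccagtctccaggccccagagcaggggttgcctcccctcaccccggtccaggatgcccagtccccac
S100A6, chr1:153535942-153536241, minus strand: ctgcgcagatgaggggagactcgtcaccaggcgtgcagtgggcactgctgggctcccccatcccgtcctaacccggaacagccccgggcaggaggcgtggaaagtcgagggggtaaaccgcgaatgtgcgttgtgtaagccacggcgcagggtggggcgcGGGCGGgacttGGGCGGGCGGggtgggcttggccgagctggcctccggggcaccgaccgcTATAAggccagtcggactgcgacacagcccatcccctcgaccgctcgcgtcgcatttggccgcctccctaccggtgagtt

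The window of S100A14 holds TATAA, the core of a TATA box, 29 bases before the start, and that of S100A6 holds it 30 bases before the start. Counted at any place in a window and on either strand, TATAA was found in 2 of the 4 members above background. It was found so in 5 of the 6 that were not, and in 8 of 14 member windows. TATAA was found on either strand in 20.4% of 35116 windows of all genes. The window of S100A2 holds TGACTCA, the letters bound by AP-1, 52 bases before the start, which 4.95% of all windows hold, and its other window holds none of the 4 motifs. The window of S100A6 holds GGGCGG, the GC box, at 3 places, of which a pair overlaps, and 45.0% of all windows hold it at least once. CCAAT, which 34.6% of all windows hold, is in none of the windows shown. These are matches of letters and not sites that were shown to be used.

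The windows also differed in CpG, the dinucleotide that is methylated in vertebrate genomes. S100A6 had 31 and S100A11 had 22 CpG in 300 bases, against a median of 14 over all windows. The other members had few, with 5 in S100A14, 3 and 8 in the windows of S100A16, 5 and 4 in those of S100A2, 8 in S100A4, 3 in S100A7, 2 in each of the 3 windows of S100A8, 5 in S100A9 and 5 in S100P. Windows with more CpG than the median of 14 were found on both sides of the background in the family. S100A10, which was not above background, had 32. S100A13, also not above background, had 19, 11 and 12 in its windows, of which only that with 19 exceeded the median. Methylation was not measured.

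S100A16, a broadly expressed member whose gene lies next to S100A14, had signals of 8.27, 8.31 and 8.61 in replicates 1, 2 and 3 (log2 signal). These were 1.57, 1.24 and 1.77 above the background of their arrays. S100A14 and S100A16 differed in the order of the replicates, since S100A14 was highest in replicate 1 and S100A16 lowest there. With 3 arrays no correlation between them can be given.

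S100A11, which binds annexin A1 at membranes, had signals of 7.89, 7.81 and 7.96 in replicates 1, 2 and 3 (log2 signal). It was 1.02 ± 0.25 above background on the log2 scale (SD, n = 3), and its highest and lowest replicates were 1.11-fold apart. RefSeq lists 10 pseudogenes named after S100A11. Whether the feature of S100A11 also takes up transcripts from them was not tested, and none of them has a named feature here.

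S100A6, or calcyclin, a partner of CacyBP and of annexins, had signals of 7.21, 7.50 and 7.86 in replicates 1, 2 and 3 (log2 signal). It was the member above background that lay nearest to it, with distances of 0.51, 0.43 and 1.03 on the log2 scale. Its SD of 0.33 was the largest among the 10 members, and replicate 3 was 1.57-fold higher than replicate 1. Of the 4528 genes above background, 61 (1.35%) were as far apart between replicates as S100A6 or farther. Since S100A6 is the member with the widest spread, this share does not measure how unusual it is.

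S100A4, a member of motile and mesenchymal cells that binds non-muscle myosin, had signals of 4.40, 4.84 and 4.55 in replicates 1, 2 and 3 (log2 signal). All 3 arrays were below background, with a mean distance of -2.27 ± 0.03 on the log2 scale (SD, n = 3). It was the one member highest in replicate 2.

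The members known from inflammation and the epidermis were not above background. S100A7 had signals of 3.29, 3.09 and 3.14 in replicates 1, 2 and 3 (log2 signal), and a distance of -3.69 ± 0.29 from background (SD, n = 3). Its near copy S100A7A had a mean signal of 3.46 ± 0.07. Features of these close copies can share probes, which makes no difference to the call here, since neither was above background.

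S100A8 and S100A9, the subunits of calprotectin, were both below background in every array. S100A8 had signals of 4.12, 3.85 and 3.99 in replicates 1, 2 and 3 (log2 signal), with a distance of -2.88 ± 0.32 from background (SD, n = 3). S100A9 had signals of 5.43, 5.63 and 5.98, with a distance of -1.19 ± 0.31. S100A12, another member of myeloid cells, had signals of 3.58, 3.24 and 3.14.

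Myeloid cells are the usual source of S100A8 and S100A9, and of 8 named myeloid markers 0 were above background in all 3 arrays. The share over all named genes was 30.4% above it in all 3 arrays and 63.3% above it in 0. CD14 had a mean signal of 3.72 ± 0.11, LYZ of 3.58 ± 0.09 and CSF1R of 4.59 ± 0.28 (SD, n = 3). CD68, named after its values were seen, was the one myeloid marker above background in some arrays, with 7.70, 7.03 and 7.01 in replicates 1, 2 and 3. Summed on the linear scale, the 8 markers reached 374.6, 300.6 and 299.9 signal units in replicates 1, 2 and 3 (CD68 included). Without CD68, left out after its values were seen, the other 7 reached 166.9, 169.6 and 170.9. These 7 were above background in 0 arrays, so their sums do not measure an amount of cells. BTSH is a single clone in culture, and what gives the S100A9 signal was not tested.

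S100P, a member first known from placenta that binds ezrin, had signals of 5.95, 5.61 and 6.01 in replicates 1, 2 and 3 (log2 signal). Its mean distance from background was -1.01 ± 0.40 on the log2 scale (SD, n = 3), the smallest among the 6 members that were not above background. S100P and S100A9 changed their call with a lower background. With the 90th percentile both were above background in all 3 arrays, which made 6 of 10 members, against 50.5% of all named genes. With the 99th percentile the same 4 members passed as with the 95th, against 22.0% of all named genes. With the median of all features as background 8 of the 10 members passed, against 67.5% of all named genes.

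The background features themselves limit these calls. By definition some of the 106 features lie above their own 95th percentile in each array, and 5 did so in all 3. The brightest, KRTAP5-7 (named after its values were seen), had signals of 8.22, 8.67 and 8.58 on the log2 scale. When that brightest feature was taken as the background, a setting chosen after seeing the data, S100A14 alone remained above it in all 3 arrays, against 11.0% of all named genes, by 0.62 on the log2 scale on average. S100A16 was above it in 2 of 3 arrays, and each of the other 8 members in 0 arrays. The late cornified envelope gene LCE3B, also a background feature, had signals of 7.19, 7.45 and 7.72, above the background in each array as S100A6 was. Whether the signal of S100A6 or of LCE3B comes from its own transcript was not tested.

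The replicates differed by less than 2-fold in all 10 members. The highest and lowest replicates were between 1.10-fold (S100A2) and 1.57-fold (S100A6) apart. The median SD of the 10 members was 0.19 on the log2 scale, beside 0.12 over all named genes, and 7 of the 10 members had an SD above that of the median named gene. Without replicate 2 the median SD of the members was 0.0978.

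By replicate, 5 of the 10 members were highest in replicate 3, 4 in replicate 1 and 1 in replicate 2. Of all named genes 33.9% were highest in replicate 3, and their shares for replicates 1 and 2 are not given here. Of the 4 members above background 3 were highest in replicate 3 (S100A16, S100A11 and S100A6), beside 27.4% of all genes above background. On average the 10 members deviated from the mean of the other 2 arrays by -0.05, -0.12 and 0.16 in replicates 1, 2 and 3 (log2 signal). The 3 deviations of a gene add up to 0 and are not separate results. For the 4 members above background the mean deviation in replicate 3 was 0.26, against -0.05 over all genes above background. Of these 4 genes S100A6 deviated most there, and S100A14 was highest in replicate 1 instead. The mean deviations of the 10 members depend on single arrays, as that in replicate 1 was -0.14 without replicate 2 and 0.05 without replicate 3.

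**Figure D2:**
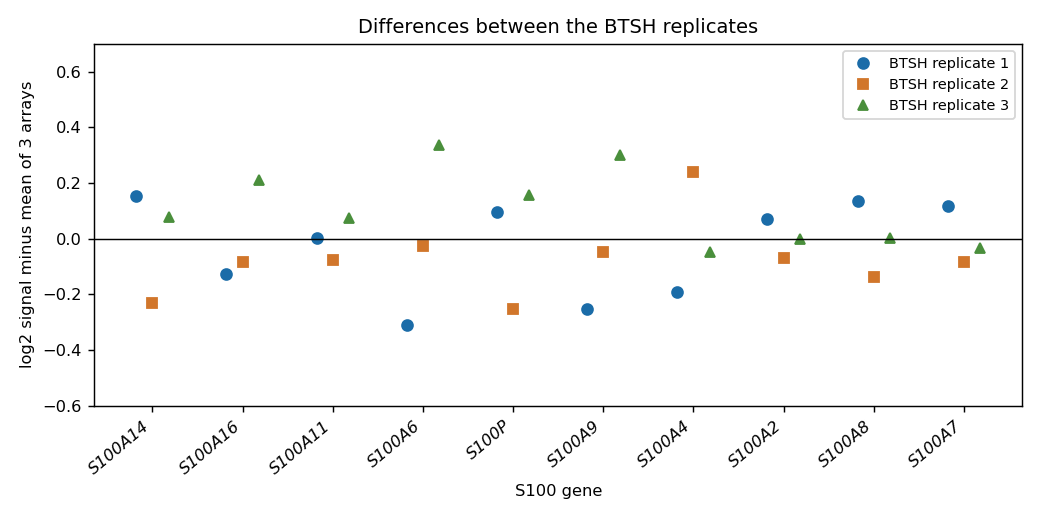
Log2 signal of each of the 10 S100 genes in each BTSH replicate minus the mean of the 3 arrays, with 1 point a replicate. Replicate 3 is the highest in 5 genes, beside 33.9% of all named genes, and the spread is widest for S100A6.

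No member was lowest in replicate 3, while 6 were lowest in replicate 2 and 4 in replicate 1. The share of all named genes lowest in each replicate is not given here, so these counts are not a result about the members. S100A6, S100A9 and S100A16 were each lowest in replicate 1 and highest in replicate 3. For the 6 members not above background, S100A9 among them, such differences lie within signal at the level of the background features. With 3 arrays this is a description of these arrays, and no test of it was made.

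The remaining S100 genes were all below the background. None of the 10 other members of the family with a named feature was above it in any array. S100A10, the partner of annexin A2 at the plasma membrane, came nearest, with signals of 6.37, 6.31 and 6.44 in replicates 1, 2 and 3 (log2 signal) and a distance of -0.50 ± 0.24 (SD, n = 3), and it passed with the 90th percentile. S100A13, which takes part in the release of FGF1, had a mean signal of 5.36 ± 0.21, and S100Z of 5.33 ± 0.06. S100A1 had 4.28 ± 0.05, S100A3 3.99 ± 0.12, S100B 3.75 ± 0.02 and S100A5 3.48 ± 0.12. S100G, the calcium-binding protein of intestinal epithelium, had 2.63 ± 0.09. In the whole family 4 of 20 named genes were thus above background, all of them among the 10 members, beside 30.4% of all named genes and 36.5% of the protein-coding ones.

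RefSeq places 16 of the 20 protein-coding S100 genes on chromosome 1 and S100P, S100Z, S100B and S100G elsewhere. The chromosome 1 genes form a cluster that is interrupted by the genes of the epidermal differentiation complex, which encode proteins of the cornified layer of skin. From S100A10 to S100A1, both included, the chromosome holds 60 protein-coding genes with a named feature. Of these 5 were above background in all 3 arrays, and they were S100A11, S100A6, S100A16, S100A14 and the background feature LCE3B. Of the 16 S100 genes in this stretch 4 passed and 12 did not, and of the 44 other genes 1 passed and 43 did not. Among all named protein-coding genes 36.5% passed in all 3 arrays, so the count of S100 genes is not a result about them. Of those 44 other genes, 17 are late cornified envelope genes, which helped to set the background. Of the remaining 27 genes 0 were above background in any array, as was the case for 63.3% of all named genes. The mean signals of these 27 had a median of 3.70 on the log2 scale, and the highest was 5.78. This stretch was laid out after the values had been seen.

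**Figure D3:**
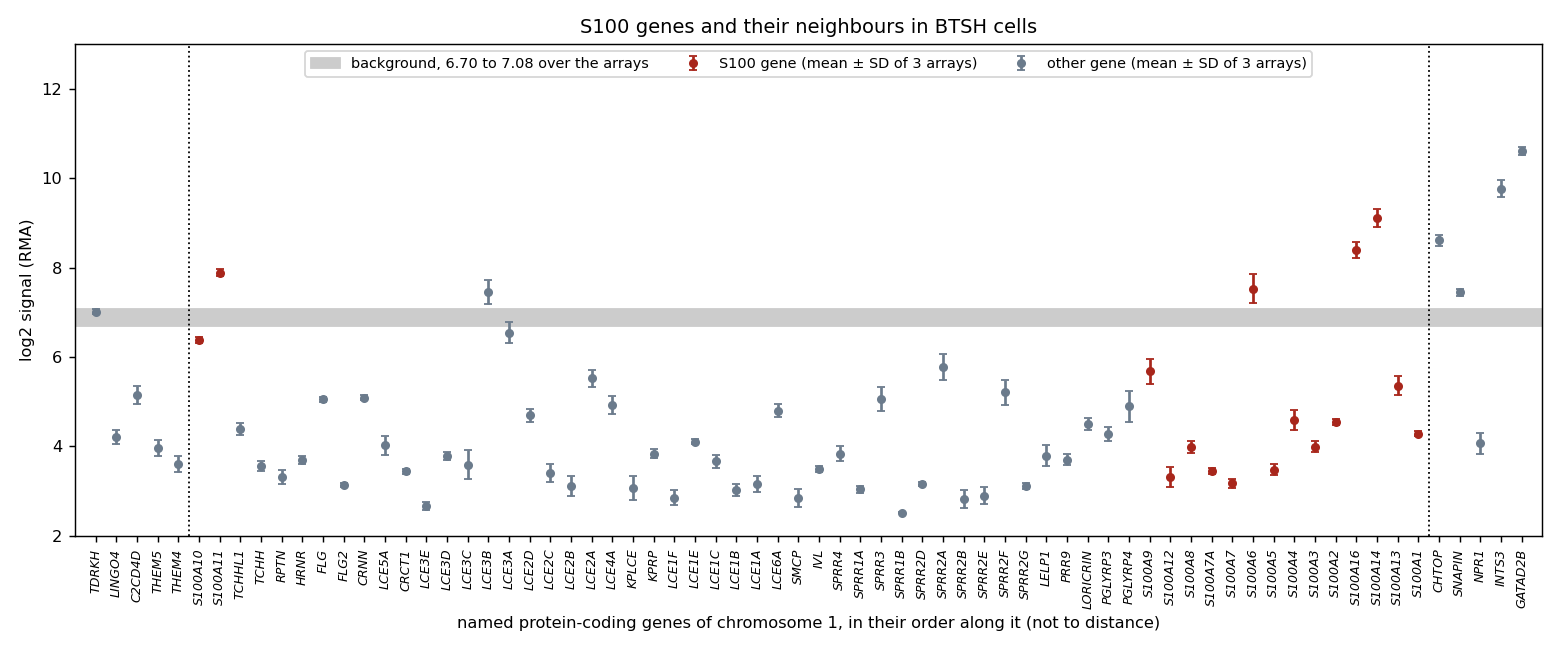
Mean log2 signal ± SD of 3 BTSH arrays for the named protein-coding genes of chromosome 1 from S100A10 to S100A1 (between the dotted lines) and 5 genes on each side, in gene order and not to distance. S100A11 stands alone at the left end, S100A6 lies within the cluster, and S100A16 and S100A14 lie side by side near the right end, while the epidermal genes between them are below the grey background band except for LCE3B.

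Within the cluster the change from one side of the background to the other came between neighbours. S100A5, S100A4, S100A3 and S100A2 lie in a row between S100A6 and S100A16, and all 4 were below background in all arrays. Next come S100A16 and S100A14, both above it, and then S100A13 and S100A1, both below it. The pair that the contrast rests on, S100A14 and S100A2, is thus separated by S100A16 alone. Past the end of the cluster 4 of the 5 next named genes were above background, such as CHTOP with 8.61 ± 0.12 (named after its values were seen), and of the 5 genes before S100A10 0 were above it in all 3 arrays and 1 in some. The gene spans of S100A1 and S100A13, of S100A4 and S100A5 and of S100A7A and S100A8 overlap in RefSeq, and whether their features can be told apart was not tested. No overlap with another S100 gene involves S100A14, S100A16, S100A11 or S100A6.

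The fused S100 genes, which join an S100 domain to long repeats in proteins of the epidermis and hair, lie in the same stretch. Of the 7 named ones 0 were above background in any array, as was the case for 63.3% of all named genes. The highest mean signals were 5.09 ± 0.06 for CRNN and 5.06 ± 0.06 for FLG, the gene of filaggrin, and the lowest was 3.14 ± 0.05 for FLG2. Of the 17 named genes of the epidermal differentiation complex on a further list 0 were above background as well.

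Binding partners of S100 proteins were measured as a list of 14 genes, of which 11 have a named feature. All 3 arrays were above background for 5 of these, 1 or 2 arrays for 2 of them, and 0 arrays for the other 4. Among the named protein-coding genes 36.5% were above it in all 3, and so the count is not a result about the partners. Ezrin (EZR), a linker of membrane and actin that S100P binds, had a mean signal of 10.86 ± 0.08 on the log2 scale and IQGAP1, a scaffold that S100P binds as well, one of 10.20 ± 0.14 (SD, n = 3). ANXA6 had 9.33 ± 0.09 and ANXA11 7.80 ± 0.14, both annexins bound by S100A6, and AHNAK, which joins the complex of S100A10 and annexin A2, had 7.89 ± 0.06. EZR and IQGAP1 were thus above background where S100P itself was not.

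**Figure D4:**
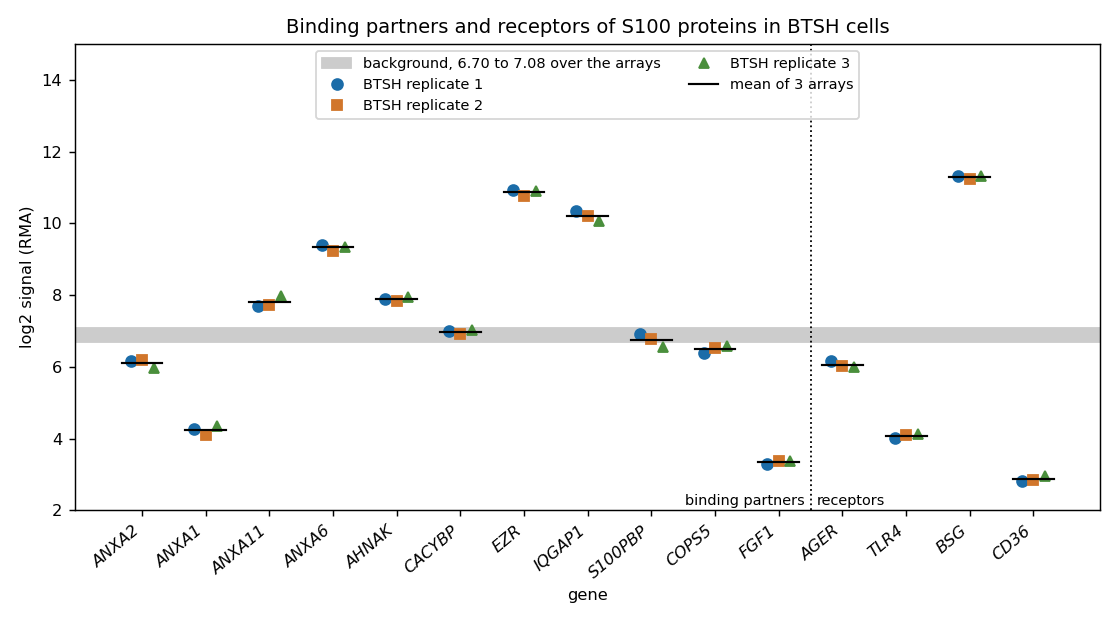
Log2 signals of 11 binding partners and 4 receptors of S100 proteins in BTSH cells, with 1 point a replicate, a black line at the mean of 3 arrays and a grey band over the background of the arrays (6.70 to 7.08). EZR, IQGAP1, ANXA6, AHNAK, ANXA11 and the receptor BSG lie above the band in every replicate.

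ANXA1 and ANXA2, an annexin partner of S100A11 and of S100A10 in turn, were below background. ANXA1 had log2 signals of 4.27, 4.09 and 4.34 and passed in 0 arrays, while S100A11 was above background in all. Other annexins that S100A11 may bind were not sorted by partner here. ANXA2, the partner of S100A10, had 6.18, 6.19 and 5.98 and was above background in 0 arrays, as S100A10 was. CACYBP, the partner of S100A6, lay at the background, with a mean of 6.98 ± 0.06 (SD, n = 3), and was above it in 2 arrays. S100PBP, which binds S100P, was above it in 1 array with a mean of 6.75 ± 0.17. COPS5, a partner of S100A7, had a mean of 6.50 ± 0.11 and FGF1 of 3.34 ± 0.05, and both were above background in 0 arrays. With the 90th percentile as background ANXA2 and COPS5 passed in all 3 arrays, and ANXA1 and FGF1 in 0.

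Of the 4 receptors of secreted S100 proteins, BSG, the gene of basigin, which binds S100A9, was above background in all 3 arrays with signals of 11.31, 11.25 and 11.31 on the log2 scale. AGER, the gene of RAGE, has 7 named features, and 0 of them were above background in any array. The brightest of them had a mean of 6.06 ± 0.10. TLR4, the receptor of calprotectin, had a mean of 4.08 ± 0.06 and CD36 one of 2.87 ± 0.06, both above background in 0 arrays. Over all named genes 30.4% were above it in all 3 arrays and 63.3% in 0.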

How the data were processed

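RNA of 3 replicates of untreated BTSH cells was measured on HuGene 2.0 ST arrays. The authors normalized the scans with Expression Console 1.4, and the deposited log2 values are RMA signals according to the submitters' processing notes, which list Transcriptome Analysis Console 4.0 too. No genome build is named for the features in these sources. RefSeq genes of GRCh38.p14 served for symbols, gene order and promoter windows. The sample labels name biotinylated cRNA, whereas the methods name cDNA. The values were used as deposited. Of 53617 features 16098 were named by the annotation of the array, each with 1 gene, and a gene with several features was represented by the one with the highest mean. Background, the call, SD and deviations were computed as the report states. With 1 group no test between groups was possible, no p-value is given, and 3 arrays limit the precision. The arrays had at most 83 identical values between any pair and each counts as 1 replicate.

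The members and lists were chosen with earlier results of these data known. The genes named are the 10 members, the other S100 genes, genes of the lists of partners, receptors and fused S100 genes, the first 3 named markers of each cell type and up to 4 genes above background of the other lists, with exceptions stated. Alternatives were other backgrounds, quantile normalization, median centring, the mean where a gene has several features, the mean over arrays, members above background only and leaving out 1 replicate. The motifs are textbook ones, and the TATA motif was shortened to TATAA after a first search. On simulated arrays 100 of 100 genes set 1 above background on the log2 scale were called in all arrays, and 0 of 100 set 1 below it. These genes were given the median SD of all features. The check thus shows that the call is computed as stated, and not how often it is wrong in these data. It does not cover genes nearer to the background, such as S100A6, which was 0.43 above it in replicate 2. Nor does it cover genes with a wide spread, such as S100A6 with its SD of 0.33. The software was matplotlib 3.10.9, pandas 2.3.3 and numpy 2.4.6 under Python 3.11.15.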

Additional observations from a re-analysis of the deposited data

How the results depend on the processing

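The calls depended on where the background was set. With the 90th percentile 7 S100 genes of the family passed, and S100A14 and S100A2 lay 3.61 and -0.94 from background on the log2 scale. With the 99th percentile these distances were 1.67 and -2.89. With the median of all features as background they were 4.68 and 0.13, so that S100A2 was above it on average, and 8 members and 11 S100 genes passed, beside 67.5% of all named genes, since that median is lower. With the brightest background feature, a setting chosen after seeing the data, 1 member and 1 S100 gene passed and the distances were 0.62 and -3.94. When 1 replicate was left out, the median SD of the members was 0.0978 to 0.205. The other 57 values changed by less than 1 SD or, for counts, by at most 1.5 times, the 6 members that passed with the 90th percentile included. For the mean deviations that SD, the median of single genes, is larger than the deviations themselves and so says little. When 1 replicate was left out they were -0.14 to 0.05 in replicate 1, -0.19 to -0.05 in replicate 2 and 0.14 to 0.19 in replicate 3. No paired analysis was possible because all arrays belong to 1 group.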

Other observations

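Other EF-hand genes were listed as a comparison, but only 4 of 17 have a named feature. Of these, 3 were above background in all 3 arrays, beside 36.5% of the named protein-coding genes. CALU, a calcium-binding protein of the secretory pathway, had a mean signal of 10.36 ± 0.12 on the log2 scale, CALML5, a calmodulin-like protein of differentiating keratinocytes, 7.68 ± 0.17 and SRI, the gene of sorcin, 7.18 ± 0.09 (SD, n = 3 BTSH arrays). SRI passed in replicate 2 by 0.000673 on the log2 scale and was above the 99th percentile in 1 array. CALML3 was above background in 0 arrays with either of its features. CALML5 was highest in replicate 3 (log2 signal 7.84), as were 27.4% of all genes above background, and CALU and SRI were highest in replicate 1.

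Keratinocyte markers outside the chromosome 1 stretch were not above background. Of 9 named ones 0 passed in any array, with a mean signal of 3.25 ± 0.11 for KRT1, 4.24 ± 0.07 for KRT2 and 3.50 ± 0.06 for KRT9 (SD, n = 3). Of 3 named fibroblast markers 0 passed in any array either, with 3.08 ± 0.09 for DCN, 3.35 ± 0.15 for LUM and 5.16 ± 0.15 for THY1. For both lists the share to compare is the 63.3% of all named genes that were above background in 0 arrays.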
